A study of Mus musculus with 12 samples.

Results

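The insulin-like growth factor (IGF) genes of the mouse cochlea were examined turn by turn: the ligands Igf1 and Igf2, the receptors Igf1r and Igf2r, and the binding proteins Igfbp2, Igfbp3, Igfbp4, Igfbp5, Igfbp6 and Igfbp7. A probe belonged to the set when the gene name printed for it on the array was one of these 10 symbols and it was not a control. All 10 symbols were found, with 112 of the 165865 probes kept, so the set was 10 of 19505 genes. The arrays carry exon probes of 60 bases, and the number per gene ran from 4 for Igfbp2 to Igfbp6 up to 48 for Igf2r.

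IGF1 and IGF2 are secreted growth factors that act mainly through the IGF1 receptor, a tyrosine kinase that signals through the PI3K-AKT and MAPK routes. The IGF2 receptor, which is also the cation-independent mannose 6-phosphate receptor, takes up IGF2 for degradation in lysosomes. Binding proteins hold the ligands outside the cell, prolong their life and limit or deliver them to the receptor, and proteases such as PAPP-A release the ligand by cutting the binding protein. In the inner ear, loss of Igf1 in mice and of IGF1 in people is known to impair hearing.

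The samples were cochleae of male C57BL/6 mice aged 6 weeks, with no treatment or genetic change named in the labels, cut into the apical, the middle and the basal turn. Each piece held lateral wall, sensory epithelium (organ of Corti) and ganglion together. Each turn gave 4 samples, numbered 1 to 4, and each sample was labeled from 25 ng of total RNA and hybridized to an array of its own, 12 arrays in all. All 4 samples of a turn were hybridized on a common slide, so turn and slide cannot be told apart. Signal below is fluorescence after each array was scaled to the same 75th percentile, 641.3, and a gene's signal is the geometric mean of its probes. Between 77.4% and 81.4% of the spots of an array were well above background. Because each piece is mixed tissue, fewer cells of a type and less RNA per cell cannot be told apart in any difference below. Signals of different genes rest on different probes and were not set against each other.

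The regions behind the results can be seen in the probes themselves. The first set is shown because it lies in the same part of 5 of the 6 binding proteins, in the coding sequence of the thyroglobulin-type domain near the end of the protein. Capitals mark the longest run of bases that a probe of each of Igfbp2 to Igfbp6 holds in common, AACTGTGAC, 9 bases long. This run was present in 80 of the 165984 probes on the array, or 0.048%, read on the strand of the probe, and in no probe of Igfbp7, whose protein lacks that domain. Positions are those printed by the array's maker, in mm9, and each sequence reads 5′ to 3′ along the transcript.
Igfbp2, chr1:72896216-72896275, plus strand: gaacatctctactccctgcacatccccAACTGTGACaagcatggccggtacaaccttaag
Igfbp3, chr11:7109462-7109521, minus strand: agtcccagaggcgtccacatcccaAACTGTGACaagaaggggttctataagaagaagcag
Igfbp4, chr11:98910480-98910539, plus strand: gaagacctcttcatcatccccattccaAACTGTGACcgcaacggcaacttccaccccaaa
Igfbp5, chr1:72909717-72909776, minus strand: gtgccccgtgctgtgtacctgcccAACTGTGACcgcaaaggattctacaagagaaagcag
Igfbp6, chr15:101978596-101978655, plus strand: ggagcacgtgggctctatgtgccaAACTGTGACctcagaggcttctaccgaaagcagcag

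Laid on each other at this run, the probes of Igfbp3 and Igfbp5, and those of Igfbp5 and Igfbp6, were alike at 40 of 60 bases, or 66.7%. The pair least alike was Igfbp2 and Igfbp6, at 40.4% of 57 bases. On the probes printed above, the log2 difference of apical minus basal was 0.19 for Igfbp2, 0.27 for Igfbp3, 0.09 for Igfbp4, 0.88 for Igfbp5 and 0.62 for Igfbp6.

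Between the apical and the basal turn, Igfbp5 and Igfbp3 were higher in the apex, and Igf2 and Igfbp7 were higher in the base. These 4 of 10 genes passed an adjusted p under 0.05 (limma, Benjamini-Hochberg over all genes), and 39.2% of all genes on the array did, so the share of the IGF genes was near the background. By direction, 2 of 10 were higher in the apex, beside 17.6% of all genes, and 2 of 10 were higher in the base, beside 21.6%. Between the apical and the middle turn 2 of 10 passed, Igfbp5 and Igfbp3, both higher in the apex (background 12%, 4.42% with the apex above and 7.59% with the middle turn above). Between the middle and the basal turn 4 of 10 passed, Igfbp5 and Igfbp6 higher in the middle turn and Igf2 and Igf1r higher in the base (background 20.9%, 11.7% with the middle turn above and 9.21% with the base above). Over the 3 turns together, 4 of 10 passed the moderated F test, Igf2, Igfbp3, Igfbp5 and Igfbp7, beside 38.6% of all genes. With a 2-fold difference asked for as well, 0 of 10 passed in each comparison, beside 4.39%, 0.436% and 2.66% of all genes for apical minus basal, apical minus middle and middle minus basal. At an unadjusted p under 0.05 in limma, without the fold, the same 4, 2 and 4 genes of 10 were counted. The share of all genes at that unadjusted threshold was not counted, so these counts cannot be set against a background. Scaling to spike-in probes moved the median of all genes by -0.49 for apical minus basal, and the difference was then 0.43 for Igfbp5, 0.05 for Igfbp3, which no longer passed, -0.83 for Igf2 and -0.97 for Igfbp7.

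**Figure D1:**
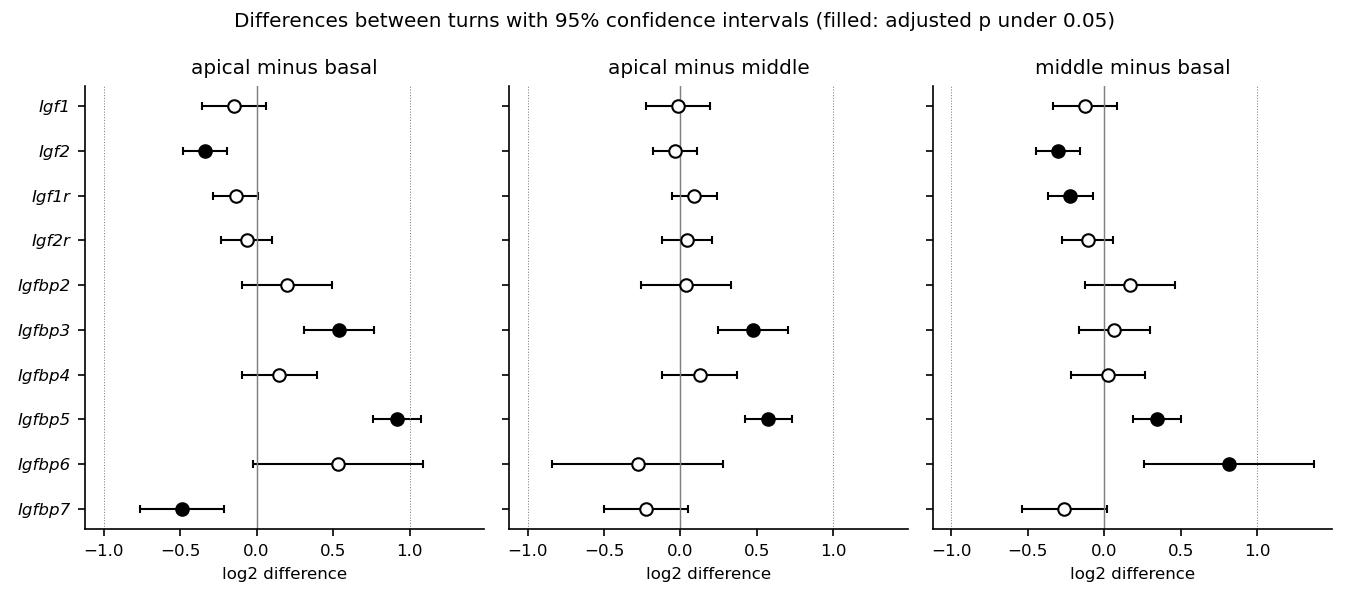
Log2 difference of each IGF gene between 2 turns (horizontal axis), with the 95% confidence interval of the limma fit over 12 arrays; filled points passed an adjusted p under 0.05 and dotted lines mark a 2-fold difference. Igfbp5 is the gene whose point is filled in all 3 panels, and Igfbp6 has the widest intervals.

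The median log2 difference of the 10 genes was 0.04 for apical minus basal, beside -0.04 for all genes. It was 0.04 beside -0.07 for apical minus middle, and -0.04 beside 0.04 for middle minus basal. In size without sign, the medians were 0.27, 0.11 and 0.20 for the IGF genes and 0.19, 0.15 and 0.16 for all genes. The genes thus went in both directions, 5 of 10 above 0 for apical minus basal.

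**Figure D2:**
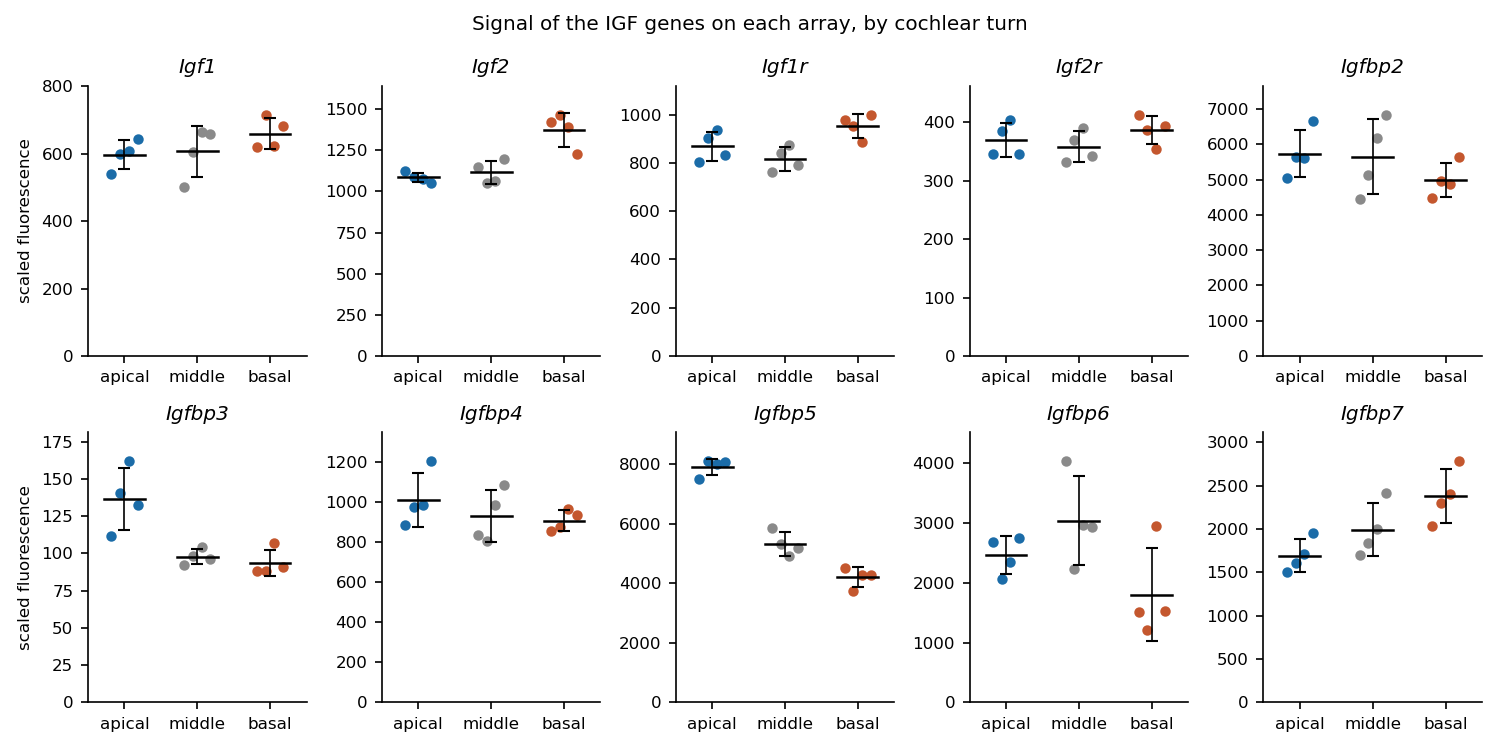
Scaled fluorescence of each IGF gene on the 12 arrays (vertical axes start at 0 and differ between genes), by turn; points are arrays in the order of their sample numbers, the long line is the mean and the whiskers are the SD. The 3 turns of Igfbp5 form separate steps from 8089.9 at the highest apical array to 3728 at the lowest basal array.

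Igf2, the fetal growth factor that in adult mice is made mainly in choroid plexus and meninges, was the ligand that differed. Its signal was 1122, 1089, 1076 and 1052 on the 4 apical arrays, 1149, 1052, 1063 and 1198 on the middle arrays, and 1419, 1465, 1391 and 1226 on the basal arrays. Every basal array lay above every apical and every middle array, while the apical and middle arrays overlapped. The log2 difference of apical minus basal was -0.34 (SE 0.07, adjusted p = 0.0018 in limma), and that of middle minus basal was -0.30 (SE 0.07, adjusted p = 0.0092), so the base was 1.27-fold and 1.23-fold higher. Apical minus middle was -0.04 with a 95% interval from -0.18 to 0.11, which did not pass (adjusted p = 0.73). The mean was 1375 ± 104 in the base (SD, n = 4) and 1085 ± 29.3 in the apex.

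The 7 Igf2 probes did not all share that difference. Igf2 has several promoters, each with its own untranslated first exon, and 3 probes each list a single transcript by its first exon. The first-exon probe listed only for NM_001122736 (chr7:149846837-149846896, minus strand, mm9) had a mean signal of 29464, 31406 and 34360 in the apical, middle and basal turns, a log2 difference of -0.22 for apical minus basal. That listed only for NM_010514 (chr7:149844438-149844497) had 1528, 1640 and 1886, a difference of -0.30. The probe listed only for NM_001122737 (chr7:149843320-149843379) had 108, 104 and 108, a difference of 0.01.

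That last probe departed from the other Igf2 probes by 0.40 on the log2 scale (adjusted p = 0.011 in limma for apical minus basal). On the arrays it read from 103 to 114 on apical arrays, from 92.9 to 113 on middle arrays and from 104 to 113 on basal arrays, so the turns overlapped. The RefSeq promoter window of this transcript (250 bases before and 50 after the start, one of 4 windows listed for Igf2, chr7:142657447-142657746, minus strand, GRCm38.p6) is printed because its last 28 bases, in capitals, are the first 28 bases of that probe, which places the probe just after this start.
Igf2 promoter window: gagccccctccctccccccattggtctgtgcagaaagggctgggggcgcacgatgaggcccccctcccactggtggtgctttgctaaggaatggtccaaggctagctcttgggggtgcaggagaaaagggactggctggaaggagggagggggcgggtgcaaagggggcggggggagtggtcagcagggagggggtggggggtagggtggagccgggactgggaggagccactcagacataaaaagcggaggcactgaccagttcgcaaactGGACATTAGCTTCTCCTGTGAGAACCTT

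The difference was widest at the 3′ end of Igf2. The last probe (chr7:149836679-149836738) read 9345 on apical arrays, 9362 on middle arrays and 15437 on basal arrays, a log2 difference of -0.72, and departed from the other probes by -0.45 (adjusted p = 0.0054). Its neighbor (chr7:149839661-149839720) read 356, 376 and 576, a difference of -0.70, and departed by -0.42 (adjusted p = 0.026). A coding probe further upstream (chr7:149840208-149840267) differed by -0.17, and its 60 bases are given here as the part of the message that encodes the growth factor precursor.
Igf2 coding probe: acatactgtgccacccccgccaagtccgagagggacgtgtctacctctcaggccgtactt

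Igf1, the ligand whose loss is known to cause deafness, did not pass at the gene level. Its signal was 539, 599, 608 and 645 on apical arrays, 501, 606, 664 and 658 on middle arrays, and 622, 715, 622 and 682 on basal arrays. The turns overlapped in each pair, and apical minus basal was -0.14 with a 95% interval from -0.35 to 0.06 (adjusted p = 0.27 in limma). This average includes 3 of its 11 probes that were well above background on only 7, 1 and 4 of the 12 arrays. With the 8 other probes alone, a choice made after seeing the data, apical minus basal was -0.29 (adjusted p = 0.018) and passed. The call also depended on other choices: Igf1 passed under 6 of 16 other settings, among them spike-in scaling with all 11 probes kept (-0.63, adjusted p = 0.0018) and the median of probes (-0.35, adjusted p = 0.018).

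On those 8 Igf1 probes the log2 difference of apical minus basal ran from -0.45 to -0.04. The coding probe at chr10:87376450-87376509 (plus strand) read 8143 in the apical, 9579 in the middle and 10922 in the basal turn, a log2 difference of -0.42. Its sequence covers the end of the mature peptide and the start of the extension that is cut away.
Igf1 coding probe: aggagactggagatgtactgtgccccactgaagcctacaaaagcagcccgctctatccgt

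Over all 11 Igf1 probes the log2 difference of apical minus basal ran from -0.45 to 0.55, and 2 probes were above 0, both among the 3 dim ones. The highest, at chr10:87323573-87323632, read only 13.6, 8.2 and 9.3 in the 3 turns and departed from the other probes (adjusted p = 0.022 over the 3 turns). The other departing probe, at chr10:87327478-87327537, was bright, at 3598, 4317 and 4867, and differed by -0.44.

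Igf1r, the signaling receptor, was higher in the base than in the middle turn. Its signal was 806, 902, 938 and 832 on apical arrays, 762, 841, 874 and 790.4 on middle arrays, and 978, 953, 887 and 999 on basal arrays. The middle and basal arrays did not overlap, and the apical arrays overlapped both. Middle minus basal was -0.22 (SE 0.07, adjusted p = 0.035 in limma), a call that was lost in 6 of 12 fits that each left out an array (the samples numbered 1, 2 and 4 of the middle and of the basal turn) and held under 12 of 16 other settings. Apical minus basal was -0.14 (95% interval -0.28 to 0.01, adjusted p = 0.14).

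The 21 Igf1r probes, spread over chr7:75097725-75378520, differed along the gene. All 21 were lower in the middle than in the basal turn, from -0.33 to -0.12. For apical minus basal they ran from -0.42 to 0.12, with 6 above 0. The second probe (chr7:75149051-75149110) was 0.10 and departed from the rest (adjusted p = 0.025 over the 3 turns), and the second to last (chr7:75363363-75363422) was -0.42 and departed too (adjusted p = 0.039).

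Igf2r, the scavenger receptor for IGF2, showed no difference that passed. Its signal was 346, 385, 404 and 345 on apical arrays, 333, 370.2, 389.9 and 342 on middle arrays, and 413, 387, 355 and 393 on basal arrays. The arrays overlapped in every pair of turns. The difference of apical minus basal was -0.07, with a 95% interval from -0.23 to 0.10, and middle minus basal was -0.11, from -0.27 to 0.05. Of its 48 probes, 15 were higher apically than basally, and the last probe (listed at chr17:12875253-12875263) departed at -0.38 (adjusted p = 0.029 over the 3 turns). The sample numbered 3 gave the highest Igf2r signal apically and in the middle turn and the lowest basally.

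Igfbp5, a binding protein that adheres to the extracellular matrix and is made by fibroblasts and bone cells among others, had the largest difference between apex and base of the 10 genes in the scaling used here. Its signal was 7504, 8089.9, 7995 and 8061 on the apical arrays, 5856, 5327, 4924 and 5180 on the middle arrays, and 4512, 3728, 4268 and 4286 on the basal arrays. The 3 turns did not overlap anywhere, with the apex highest and the base lowest. Apical minus basal was 0.92 (SE 0.07, 95% interval 0.76 to 1.07, adjusted p = 4.6e-06 in limma), a 1.89-fold difference. Apical minus middle was 0.57 (adjusted p = 0.0011) and middle minus basal was 0.34 (adjusted p = 0.0072), with the same SE. With spike-in scaling the last was 0.07 and did not pass. By the F test over the 3 turns, Igfbp5 ranked 209 of 19505 genes (adjusted p = 1.6e-05).

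Each Igfbp5 probe showed this order. From the first to the last along the transcript, the log2 difference of apical minus basal was 1.07, 0.90, 0.88 and 0.82. The first probe (chr1:72920789-72920848, minus strand) read 3605, 2273 and 1723 in the 3 turns, and the last (chr1:72904829-72904888), near the 3′ end, read 48039, 34255 and 27185. No Igfbp5 probe departed from the others. The second, in the coding sequence, is shown with the third above as the part of the gene where the gradient was read within the protein's message.
Igfbp5 second probe, chr1:72910425-72910484, minus strand: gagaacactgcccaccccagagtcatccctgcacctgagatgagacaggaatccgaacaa

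Igfbp3, the main carrier of IGFs in blood and also made locally, was higher in the apex than in both other turns. Its signal was 112, 141, 162 and 132 on apical arrays, 92.3, 98.0, 105 and 96.4 on middle arrays, and 88.3, 88.5, 106.9 and 91.1 on basal arrays. The lowest apical array lay above the highest middle and basal arrays, and the middle and basal arrays overlapped. The difference of apical minus basal was 0.54 (SE 0.10, adjusted p = 0.0019 in limma) and apical minus middle was 0.47 (SE 0.10, adjusted p = 0.018). The second call was lost without the apical sample numbered 2. With spike-in scaling neither passed, at 0.05 for apical minus basal and 0.26 for apical minus middle. Middle minus basal was 0.07 (95% interval -0.16 to 0.30).

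The largest difference within Igfbp3 was that of its first probe, chr11:7113508-7113567 on the minus strand, in the coding sequence of the IGF-binding domain. It read 134, 73.7 and 55.8 in the 3 turns, a log2 difference of 1.27 for apical minus basal. On the arrays it read from 124 to 162 on apical arrays, from 67.4 to 87.3 on middle arrays and from 44.2 to 72.7 on basal arrays. The other 3 probes differed by 0.25, 0.27 and 0.36, and the first departed from them by 0.97 (adjusted p = 0.013). G and C made up 75% of its bases and from 45.0% to 58.3% of those of the others. Whether base composition had a part in the departure was not tested.
Igfbp3 first probe: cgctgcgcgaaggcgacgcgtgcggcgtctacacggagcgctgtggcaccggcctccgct

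**Figure D3:**
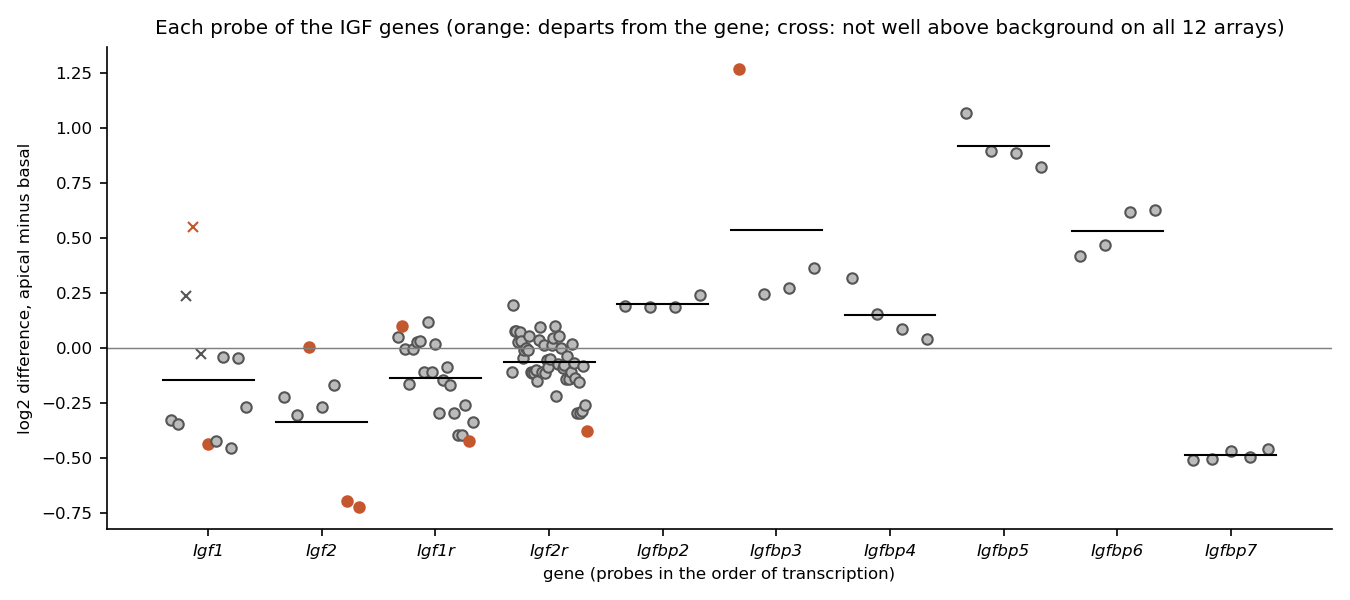
Log2 difference of apical minus basal for each of the 112 probes of the IGF genes (vertical axis), in the order of transcription within a gene; black lines are the gene averages, orange marks the 9 probes that departed from their gene, and crosses are the 3 Igf1 probes that were not well above background on all 12 arrays. The 4 Igfbp5 probes lie between 0.82 and 1.07 and the 5 Igfbp7 probes between -0.51 and -0.46, while the first Igfbp3 probe stands alone at 1.27.

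In all, 9 of 112 probes departed from the other probes of their gene over the 3 turns (adjusted p under 0.05 in limma), beside 6.29% of the 159900 probes tested on the array. They were 3 probes of Igf2, 2 each of Igf1 and Igf1r, and 1 each of Igf2r and Igfbp3. None of the 21 probes of Igfbp2, Igfbp4, Igfbp5, Igfbp6 and Igfbp7 departed at this threshold. When an array was left out the count of departing probes ran from 1 to 11. It was 1 without the basal sample numbered 2 and 11 without the middle sample numbered 3. The count was 5 or fewer in each fit that left out an apical sample, the middle sample numbered 4 or a basal sample numbered 1, 2 or 4. In these fits the share of all probes that departed was not counted, so a loss particular to the IGF probes cannot be told from a loss over the array.

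Igfbp7, a secreted protein with low affinity for IGFs that is abundant in vessel walls, was higher in the base than in the apex. Its signal was 1505, 1604, 1710 and 1959 on apical arrays, 1706, 1842, 1997 and 2411 on middle arrays, and 2033, 2303, 2403 and 2780 on basal arrays. Each basal array lay above each apical array, and the middle arrays overlapped both. Apical minus basal was -0.49 (SE 0.13, adjusted p = 0.0094 in limma), so the base was 1.40-fold higher. The steps of -0.23 from apex to middle (95% interval -0.50 to 0.05, adjusted p = 0.24) and -0.26 from middle to base (-0.54 to 0.01, adjusted p = 0.16) did not pass. With the sample number as a replicate block both steps passed, but the numbers were not shown to pair the samples.

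The 5 Igfbp7 probes, over chr5:77778271-77836624 on the minus strand, ran from -0.51 to -0.46 for apical minus basal although the mean signal of the dimmest was 90.7 and that of the brightest 5876 in the apex. In each turn the sample numbered 4 gave the highest Igfbp7 signal and that numbered 1 the lowest. The same held for Igfbp2.

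Igfbp6, which binds IGF2 in preference to IGF1, was higher in the middle than in the basal turn, and its arrays in the middle and basal turns had the largest SD of the set on the log2 scale. Its signal was 2688, 2070.1, 2346 and 2752 on apical arrays, 4027, 2232, 2971 and 2927 on middle arrays, and 1508, 1216, 2946 and 1522 on basal arrays. The basal sample numbered 3 lay among the arrays of the other turns, at 2946, while the 3 others in the base were the lowest of all 12. Middle minus basal was 0.81 (SE 0.25, adjusted p = 0.042 in limma), a 1.76-fold difference. That call was lost in 10 of 12 fits that each left out an array (all but those without the middle sample numbered 2 or the basal sample numbered 3) and held under 11 of 16 other settings. The difference of apical minus basal was 0.53 (adjusted p = 0.12), and without the basal sample numbered 3 it was 0.80 and passed.

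In the base and the middle turn, the sample highest in Igfbp6 was also highest in nerve and hair cell marker signal. The apex did not share this. The summed signal of 8 Schwann and satellite glia markers was 10230.5, 7566, 13913 and 8953 in the base, highest in the sample numbered 3, and from 14558 to 18885 in the other turns, highest in the middle sample numbered 1. The summed signal of 10 spiral ganglion neuron markers was 10234, 5121, 21994 and 7629 in the base and reached 42297 in the middle sample numbered 1. The summed signal of the hair cell markers had the same pattern, at 10328, 7098, 16951 and 10411 in the base. It was highest in the middle sample numbered 1, at 34006. Of the glia markers 7 of 8 were higher in the middle than in the basal turn, and of the neuron markers 9 of 10, beside 11.7% of all genes. Each marker had a probe above background on some array. The part of nerve tissue or of hair cells in the Igfbp6 signal was not tested.

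**Figure D4:**
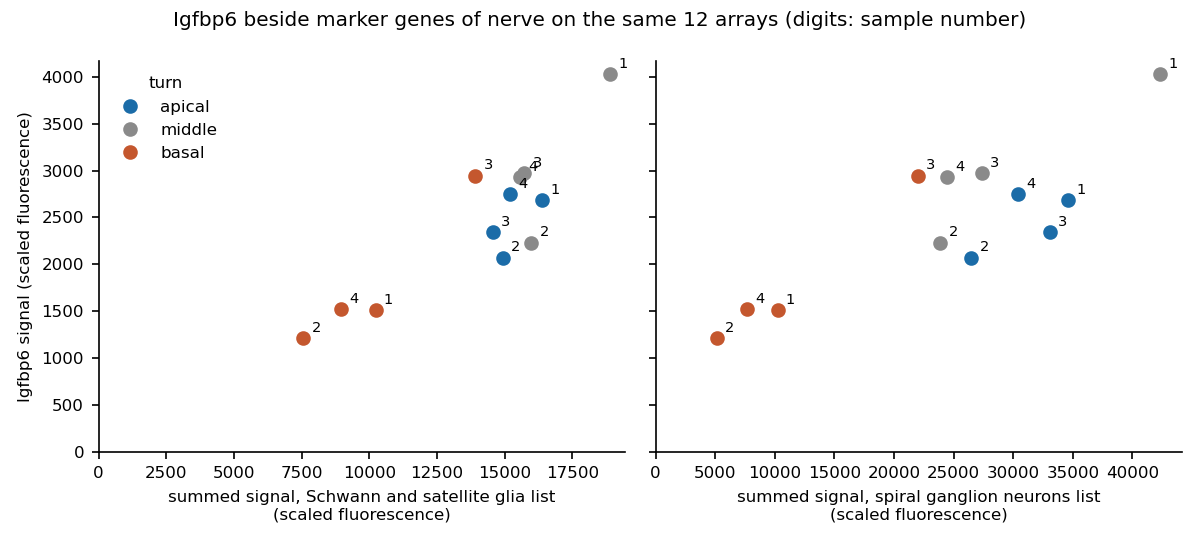
Igfbp6 signal (vertical axes) against the summed signal of Schwann and satellite glia markers (left) and spiral ganglion neuron markers (right), in scaled fluorescence on the same 12 arrays; colors are turns and digits are sample numbers. The basal samples 1, 2 and 4 sit together at low values of both, and the basal sample 3 and the middle sample 1 lie apart from the others of their turns.

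All 4 Igfbp6 probes, over chr15:101974941-101979911, showed the same order of turns. Their log2 difference of middle minus basal ran from 0.71 to 0.89, and that of apical minus middle from -0.38 to -0.24.

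Igfbp2, a binding protein prominent in fetal tissue and in cerebrospinal fluid, did not pass in any comparison with the scaling and the fit used here. With the sample number as a replicate block it passed for apical minus basal, but the numbers were not shown to pair the samples. Its signal was 5034, 5642, 5603 and 6652 on apical arrays, 4456, 5134, 6168 and 6830.4 on middle arrays, and 4464, 4956, 4861 and 5641 on basal arrays. The arrays of the turns overlapped in every pair. Apical minus basal was 0.20 with a 95% interval from -0.09 to 0.49, and its 4 probes lay between 0.19 and 0.24. With quantile normalization apical minus basal was 0.41 and passed (adjusted p = 0.019).

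Igfbp4, a binding protein that PAPP-A cuts, did not pass either. Its signal was 883, 975, 984 and 1202 on apical arrays, 837, 807, 986 and 1082 on middle arrays, and 853, 874, 964 and 937 on basal arrays. The arrays overlapped in every pair of turns, and apical minus basal was 0.15 with a 95% interval from -0.09 to 0.39. Its 4 probes ran from 0.32 at the first to 0.04 at the last along the transcript, and none departed.

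The arrays of 2 turns did not overlap for 4 of 10 genes between apex and base, 2 of 10 between apex and middle, and 3 of 10 between middle and base. For all genes on the array the shares were 38.3%, 20.8% and 24.1%.

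Values are given for 55 other genes of the pathway on the array. Hras, also listed, had no probe under that name. For apical minus basal 10 had the higher signal apically and 15 basally, at an adjusted p under 0.05, beside the 17.6% and 21.6% of all genes given above. For apical minus middle the counts were 2 and 2, beside 4.42% and 7.59%, and for middle minus basal 6 had the higher signal in the middle turn and 10 basally, beside 11.7% and 9.21%. The median log2 difference of apical minus basal over the 55 genes was -0.01.

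Among the proteases that free IGFs from binding proteins and their inhibitors, 3 of 6 passed the F test, beside 38.6% of all genes, and Pappa and Stc1 differed by over 2-fold. Pappa, which encodes the protease PAPP-A, read 96.3, 83.7, 109 and 85.6 on apical arrays, 135, 84.3, 104 and 73.2 on middle arrays, and 289, 240.0, 220.4 and 363 on basal arrays. The basal arrays lay above all others, with apical minus basal at -1.55 (SE 0.20, adjusted p = 0.00014 in limma). Stc1, which encodes stanniocalcin-1, an inhibitor of that protease, went the other way, at 61.4, 69.0, 64.7 and 83.9 on apical arrays, 16.2, 7.7, 19.7 and 11.4 on middle arrays, and from 12.6 to 15.0 on basal arrays.

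No Stc1 probe was well above background on a basal array, so the basal signal is not a measured level. Each basal array was counted at the higher of its dimmest detected probe and the signal of Stc1 itself. The apex was then 4.78-fold higher than the base, a value that was not tested. That dimmest probe read from 6.1 to 18.6 over all arrays, beside 12.6 to 15.0 for Stc1 on basal arrays. The 4.78-fold value is therefore close to the measured one and sets no firm limit on the basal level. The difference as measured, with the undetected basal signals, was 4.92-fold (adjusted p = 3.6e-05 in limma). In the middle turn 2 of 4 Stc1 probes were well above background on some array and none on all 4. Stc2, of the same list, also passed the F test, with a mean signal of 10.4, 18.5 and 15.8 in the apical, middle and basal turns. Apical minus basal was -0.59 (adjusted p = 0.017 in limma) and apical minus middle -0.83 (adjusted p = 0.014), the direction opposite to that of Stc1. Of its 4 probes, 1 was well above background on any apical array, 2 on any middle and 2 on any basal array. None was so on all arrays of a turn.

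In the imprinted growth genes, 3 of 6 passed the F test, beside the same 38.6%, all higher apically than basally. H19, the noncoding RNA that shares its imprinting center with Igf2 and is read from the other parental copy, has 1 probe here. It read 420.3, 399, 619 and 529.6 on apical arrays, 390.0, 327, 393 and 324 on middle arrays, and 121, 76.6, 282 and 106.6 on basal arrays. No 2 turns overlapped, and apical minus basal was 1.91 (SE 0.32, adjusted p = 0.00080 in limma), the direction opposite to that of Igf2. Mest, a gene read from the paternal copy, differed by 1.31 (adjusted p = 0.0087), with the basal sample numbered 3 again highest in its turn, at 228 against 58.1 to 122.

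Of the proteins that bind IGF2 mRNA, Igf2bp2 was higher in the apex. It read 150, 139, 151 and 128 on apical arrays, 104, 109, 118 and 111 on middle arrays, and 85.3, 81.7, 73.6 and 73.9 on basal arrays. The turns did not overlap, and apical minus basal was 0.85 (adjusted p = 8.8e-06 in limma). Igf2bp3 also passed, at 0.41 (adjusted p = 0.0058), but 2 of its 13 probes were above background in each turn, and with the probes detected on all 12 arrays it was 0.33 and did not pass (adjusted p = 0.080). With spike-in scaling it was -0.075.

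The growth hormone axis, which drives Igf1 in liver, had 3 of 5 genes higher in the base and 1 in the apex, beside 21.6% and 17.6% of all genes. The signal transducers Stat5b and Stat5a differed by -0.79 and -0.71 for apical minus basal (adjusted p = 5.7e-06 and 6.9e-06 in limma). Stat5b read from 344 to 353 on apical arrays, from 375 to 416 on middle arrays and from 532 to 638 on basal arrays. The basal sample numbered 3 was the lowest of its turn in both.

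Genes downstream of the receptor went both ways. In the PI3K-AKT-mTOR arm 2 of 16 genes had their higher signal apically and 6 basally, beside 17.6% and 21.6% of all genes. Akt2, a kinase of insulin signaling, differed by -0.56 for apical minus basal (adjusted p = 9.1e-05), and Foxo1, the transcription factor that AKT restrains, by -0.54 for middle minus basal (adjusted p = 0.0014). In the MAPK arm 2 of 6 genes passed for apical minus basal, both higher in the base, beside 21.6% of all genes. They were the kinase genes Map2k2, at -0.53 (adjusted p = 0.00011), and Mapk3, at -0.27 (adjusted p = 0.0051). With quantile normalization Mapk3 was at -0.089 and did not pass (adjusted p = 0.18).

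Of 8 receptor adaptors, 1 had its higher signal apically and 2 basally, near or below the 17.6% and 21.6% of all genes. Irs2, a docking protein of the insulin and IGF1 receptors, differed by 0.44 for middle minus basal (adjusted p = 0.0076, but 0.17 with spike-in scaling, where it did not pass) and Shc1, which links receptors to RAS, by -0.36 for apical minus basal (adjusted p = 0.0027). Insrr, an orphan relative of the insulin receptor, differed by 0.14 for middle minus basal (adjusted p = 0.031), with 10 of its 20 probes above background on any apical or basal array. It passed under 4 of 16 other settings, and its sign turned under 4, among them spike-in and quantile scaling. None of the 3 carriers and related proteins, Igfals, Igfbp1 and Igfbpl1, passed the F test at an adjusted p under 0.05. At an unadjusted p under 0.05 the count was 1 of 3, Igfbp1, and the share of all genes at that threshold was not counted.

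**Figure D5:**
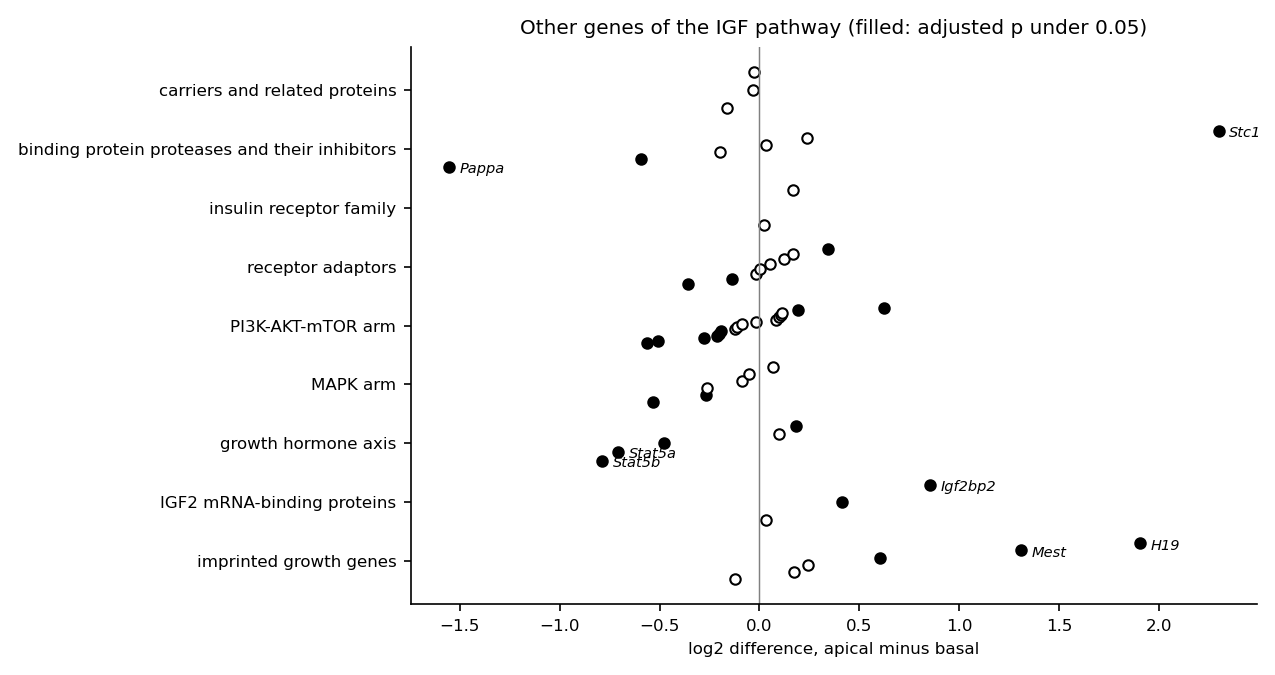
Log2 difference of apical minus basal for 55 other genes of the IGF pathway on the array (horizontal axis), by list; filled points passed an adjusted p under 0.05, and the genes named by the fixed rule that differed by over 0.7 are written out. Stc1 and H19 lie farthest to the apical side and Pappa farthest to the basal side.

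By the Pearson correlation of log2 signal over the 12 arrays, the genes most like Igfbp5 were Tmem132c (r = 0.993), Cdh6 (r = 0.981) and Pdgfc (r = 0.980), and 435 of 19504 genes had an r above 0.9. The points share arrays, slides and scaling. Cdh6 differed by 1.83 for apical minus basal, Pdgfc by 1.13 and Tmem132c by 0.54.

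Cell type markers moved between the same turns. The counts below are of markers past an adjusted p under 0.05 for apical minus basal, beside the 17.6% of all genes with the apex above and the 21.6% with the base above. Of the hair cell markers 10 of 11 were higher apically and 0 basally, of the neuron markers 8 of 10 and 1, and of the Schwann and satellite glia markers 7 of 8 and 0. The summed hair cell signal was 28431 to 33038 on apical arrays and 7098 to 16951 on basal arrays. Igfbp5 and Igfbp3 were higher in that direction too. Lists with more markers higher basally, as Igf2 and Igfbp7 were, came from several tissues. The summed signal of the list for the vestibular and nonsensory dark cell region was 2566 to 3026 on apical and 7402 to 12286 on basal arrays, with 3 of 6 markers higher basally and 0 apically. Spiral ligament fibrocyte markers were higher basally for 6 of 7 and apically for 1 (summed signal 277804 to 302140.1 and 538903 to 600331). Chondrocyte markers were so for 4 of 7 and 1 (1511 to 1707 and 2721 to 3280), and those of pericytes and smooth muscle for 5 of 8 and 1 (2588 to 2833 and 4294 to 5059). In the stria vascularis, 7 of 8 intermediate cell markers (38073 to 44530.0 and 59338 to 80129.7) and 6 of 8 marginal cell markers (8579 to 9099 and 10467 to 12331) were higher basally, and 0 of either apically. Macrophage markers had 6 of 9 higher basally and 0 apically (5176 to 8091 and 7691 to 9496), and the summed signal overlapped, as it did for endothelium, with 6 of 10 and 2 (10103 to 13161 and 12461 to 14335). Of 10 fibroblast and meninges markers, 3 had their higher signal apically and 3 basally, and of 9 supporting cell markers 5 and 3. The summed signals of both lists were higher basally all the same, without overlap. They were 370511 to 400322 and 477949 to 489041 for fibroblasts and meninges, and 205546 to 237590 and 272930 to 327830 for supporting cells. Of 9 osteoblast and osteocyte markers, 1 had its higher signal apically and 1 basally. Their summed signal was 3032, 5223, 3708 and 16986 on apical arrays and 9501 to 11298 on basal arrays. The apical sample numbered 4 also had the highest summed signal of neutrophil markers, 37108, and the highest Igfbp4 signal, 1202. The share of any cell type in the differences of the IGF genes was not tested.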

How the data were processed

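Total RNA from each cochlear turn was labeled with Cy3 and hybridized to Agilent exon arrays, 1 array per sample. The deposited values are spot intensities, which the authors extracted from the scanned images with Agilent Feature Extraction 10.7.3.1 (per the file headers). The software had subtracted background and corrected trends across each array, and dim spots carry a small positive stand-in. The deposited series table holds the same intensities on all 12 arrays. Nothing was normalized across arrays beforehand.

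Of 180880 spots, 7914 controls and 622 flagged spots were left out, which removed 119 probes. No flagged spot belonged to an IGF gene. Each array was scaled to the 75th percentile (534.6 to 722.1 before scaling, 641.3 after), spots of a probe were averaged as log2 values, and probes with 1 gene name were averaged. There was no pseudocount and no filter on dim probes. The median SD of a gene within a turn was 0.106 to 0.126 on the log2 scale. The number of arrays, 4 a turn, limits precision.

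Turns were compared in R 4.3.3 by limma 3.58.1, with lmFit and eBayes on the 12 arrays together, adjusted by Benjamini-Hochberg over 19505 genes. A probe's departure was its log2 value minus the mean of the other probes of its gene, tested likewise for genes with 3 or more probes. Scripts were tested on simulated data. The sources do not say which samples came from the same of the 4 mice, and p-values measure the spread between these samples. Groups came from the sample labels.

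All 10 IGF genes are named. Pathway genes are named when they passed the F test with a 2-fold difference, otherwise the 2 of a list with the smallest p among those that passed. Stc2 is given beside Stc1 and was not named by this rule. For the member with the smallest F p-value, the 3 most correlated genes are given. A gene of the MAPK list is not reported here and was left out of the counts and of the naming rule. Members, gene lists and rules were chosen with earlier results of these data known. Alternatives covered scaling (quantile, median, spike-in), background (normexp with offset 50), a pseudocount of 16, how probes are averaged or filtered, flags, the replicate block, other tests and each array left out. Positions are mm9, no genome of that build was used here, and promoter windows are from RefSeq (GRCm38.p6) and were matched by sequence only.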

Additional observations from a re-analysis of the deposited data

Results flagged for a closer look

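Groups of 4 arrays, 75 in all, were counted over the IGF genes and the pathway genes named by the fixed rule. In 5 of them, the gap between the most distant array and its nearest neighbor passed Dixon's 95% critical value. Chance passes that level in about 5% of groups. Igfbp3 on the basal sample numbered 3 read 106.9, against 88.3 to 91.1 on the other basal arrays. Igfbp5 on the apical sample numbered 1 read 7504, against 7995 to 8089.9. Foxo1 read 2511 on the middle sample numbered 2. Stat5b read 532 and Stat5a 306 on the basal sample numbered 3. That basal sample accounts for 3 of the 5 and is also the basal array with the highest Igfbp6, H19, Mest, nerve marker and hair cell marker signal.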

How the results depend on the processing

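When arrays were left out 1 at a time, the IGF genes that passed numbered 4 to 5 for apical minus basal, 1 to 2 for apical minus middle (1 without the apical sample numbered 2), 2 to 4 for middle minus basal (2 without the middle samples numbered 1 and 4 or the basal samples numbered 1, 2 and 4) and 3 to 5 for the F test, and departing probes numbered 1 to 11. Igf2, Igfbp3, Igfbp5 and Igfbp7 passed for apical minus basal in all 12 of these fits. For middle minus basal the count was 2 with the median of probes and 2 with only the arrays of both turns. With only probes well above background on all 12 arrays, added after seeing the data, the F count was 7. With a 2-fold difference required, the counts were 0, 0 and 0. The share of all genes that passed, or of all probes that departed, was not counted in these fits. A shift of the IGF genes can therefore not be told from a shift of all genes. The cause of these shifts was not tested.

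The sample numbers were not shown to pair the samples: over 12 pairs of equal number the correlation of deviations from the turn means ran from -0.04 to 0.23, 6 of 12 were over 0.1, and 8 of 12 arrays correlated best with their own number. With the number as a replicate block, 5, 3 and 5 genes passed for apical minus basal, apical minus middle and middle minus basal, 5 passed the F test, and 5 probes departed. The block added Igfbp2 for apical minus basal (0.20, adjusted p = 0.041 in limma) and Igfbp7 for the other comparisons (adjusted p = 0.011 and 0.0034). The share of all genes that passed, or of all probes that departed, was not counted with the block.

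Differences that changed sign had not passed in the comparison concerned, with the exceptions of Igf2bp3 and Insrr. With quantile normalization, Igf1 for apical minus middle was 0.030, and Igfbp3 and Insrr for middle minus basal were -0.050 and -0.060. With scaling to the median, apical minus middle was -0.0086 for Igf2r and -0.019 for Igfbp2, and middle minus basal was -0.040 for Igfbp4. With spike-in scaling, which moved the median of all genes by -0.49, -0.22 and -0.27, apical minus basal was -0.29 for Igfbp2, -0.34 for Igfbp4 and -0.075 for Igf2bp3, apical minus middle was -0.13 for Igf1r, -0.17 for Igf2r, -0.18 for Igfbp2 and -0.091 for Igfbp4, and middle minus basal was -0.10 for Igfbp2, -0.21 for Igfbp3, -0.25 for Igfbp4 and -0.13 for Insrr. Middle minus basal was -0.013 for Igfbp3 with the median of probes, and -0.034 and -0.020 for Insrr with the mean linear signal and with detected probes alone. With an array left out, apical minus middle ran from -0.11 to 0.031 for Igf1 and from -0.074 to 0.13 for Igfbp2, and middle minus basal from -0.053 to 0.088 for Igfbp4. Brightness over background limits Stc1, Stc2, Insrr, Igf2bp3 and the 3 dim Igf1 probes.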
